A study of Mus musculus with 12 samples.

Results

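Aminoacyl-tRNA synthetases are the enzymes that join each amino acid to its transfer RNA, the step that fixes the genetic code during translation. The 36 genes described here were taken by symbol from a list of these enzymes and matched to the Ensembl identifiers of the gene count table. Of them 20 encode enzymes of the cytosol and 16, whose names end in 2, encode enzymes of mitochondria, out of 55471 genes in the table. All 36 had enough counts to enter the tests, which covered 17197 genes.

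Expression was measured by RNA sequencing in Ba/F3 cells, a mouse line described as pro-B cells that needs interleukin-3 (IL-3) unless an oncogene replaces that signal. There were 3 groups of 4 lines, which the series calls biologically independent, all made from this 1 cell line. MSCV lines held the vector with no insert and were kept in 0.5 ng/ml IL-3. BCR-ABL1 and SFPQ-ABL1 lines each held the named fusion, which joins a partner to the ABL1 kinase, and were kept with no IL-3. Pellets came from exponentially growing, untreated cells. Fusion and IL-3 therefore differ together in both comparisons with MSCV and cannot be told apart there, and only SFPQ-ABL1 against BCR-ABL1 compares cells in the same medium. Both comparisons with MSCV also share the same 4 control lines.

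The cytosolic enzymes charge transfer RNAs for all nuclear-encoded messages, and 8 of the genes listed here encode enzymes held in a large multisynthetase complex with the scaffold proteins Aimp1, Aimp2 and Eef1e1. Synthetases fall into class I and class II by the fold of their catalytic domain. The mitochondrial enzymes are made in the cytosol, imported, and charge the transfer RNAs of the small mitochondrial genome. Gars and Kars each encode both the cytosolic and the mitochondrial form of their enzyme, so they have no partner ending in 2. Many cytosolic synthetase genes are textbook targets of ATF4, a transcription factor made when amino acids are short or the integrated stress response is active. ATF4 and its partners bind the C/EBP-ATF response element, written here as TGATGNAA.

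RefSeq promoter sequences (250 bases before the transcript start to 50 after it, build GRCm38.p6) were matched by symbol for 13 of the 20 cytosolic and 14 of the 16 mitochondrial genes. No entry was matched for Cars, Hars, Lars, Nars, Rars, Vars, Wars, Hars2 and Pars2. On both strands, TGATGNAA occurred in the promoters of Aars, Gars, Iars, Tars and Yars, that is in 5 of 13 cytosolic genes and 0 of 14 mitochondrial ones. It occurred in 3.97% of all 32851 promoters of this length and in at least 1 promoter of 4.51% of their 27025 genes. The E-box CACGTG occurred in Aars, Farsb, Iars, Tars and Ears2, so in 4 of 13 cytosolic and 1 of 14 mitochondrial genes, against 7.15% of all promoters and 8.09% of genes. The ETS motif CCGGAAGT occurred in Farsa, Mars1 and Rars2, against 3.89% of all promoters and 4.31% of genes, and the palindromic NRF1 motif in none of the genes, against 0.971% of all promoters and 1.07% of genes. None of these motifs overlapped another in these sequences, and a match describes letters only. The 5 promoters with TGATGNAA are shown because their genes were all among those higher with BCR-ABL1 below, as were 16 of all 20 cytosolic genes. Dars, Eprs, Farsb, Mars1 and Sars were also higher, with no TGATGNAA in their promoters, which are not shown. Farsa and Kars follow because the former was lower with BCR-ABL1 and the latter did not pass the test. Capitals mark every match to the 4 motifs, and positions given afterwards count from the start base as 0.
Aars (GRCm38.p6, chr8:111033592-111033891, plus strand): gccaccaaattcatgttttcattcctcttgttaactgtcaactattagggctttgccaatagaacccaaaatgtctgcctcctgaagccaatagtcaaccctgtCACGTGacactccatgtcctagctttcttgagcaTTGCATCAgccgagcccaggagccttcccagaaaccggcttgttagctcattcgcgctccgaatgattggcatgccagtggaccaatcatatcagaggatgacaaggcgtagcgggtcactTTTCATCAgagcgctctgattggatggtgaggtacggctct
Tars (GRCm38.p6, chr15:11399609-11399908, minus strand): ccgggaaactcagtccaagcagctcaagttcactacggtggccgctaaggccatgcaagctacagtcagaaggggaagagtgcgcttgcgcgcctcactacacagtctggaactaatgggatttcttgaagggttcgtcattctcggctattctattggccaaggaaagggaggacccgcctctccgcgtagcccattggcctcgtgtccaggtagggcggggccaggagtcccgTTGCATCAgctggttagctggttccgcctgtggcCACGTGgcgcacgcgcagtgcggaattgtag
Iars (GRCm38.p6, chr13:49681880-49682179, plus strand): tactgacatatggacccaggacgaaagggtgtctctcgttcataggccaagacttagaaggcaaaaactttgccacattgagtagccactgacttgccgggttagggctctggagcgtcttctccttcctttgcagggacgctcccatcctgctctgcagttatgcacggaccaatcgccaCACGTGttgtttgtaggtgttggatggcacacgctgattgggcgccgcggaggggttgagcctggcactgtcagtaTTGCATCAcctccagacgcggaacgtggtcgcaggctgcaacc
Yars (GRCm38.p6, chr4:129189653-129189952, plus strand): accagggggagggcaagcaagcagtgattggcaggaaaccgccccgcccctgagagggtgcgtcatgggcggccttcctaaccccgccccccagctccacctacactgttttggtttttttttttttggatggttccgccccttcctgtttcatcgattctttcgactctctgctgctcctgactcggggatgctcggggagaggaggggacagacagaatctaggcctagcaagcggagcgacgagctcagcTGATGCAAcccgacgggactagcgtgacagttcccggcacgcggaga
Gars (GRCm38.p6, chr6:55037751-55038050, plus strand): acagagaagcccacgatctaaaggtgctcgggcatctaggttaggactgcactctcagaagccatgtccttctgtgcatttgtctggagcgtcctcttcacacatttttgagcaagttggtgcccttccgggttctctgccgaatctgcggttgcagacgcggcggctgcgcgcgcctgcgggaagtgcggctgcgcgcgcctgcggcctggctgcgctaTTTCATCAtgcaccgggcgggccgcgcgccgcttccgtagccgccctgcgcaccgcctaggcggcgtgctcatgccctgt
Farsa (GRCm38.p6, chr8:84856736-84857035, plus strand): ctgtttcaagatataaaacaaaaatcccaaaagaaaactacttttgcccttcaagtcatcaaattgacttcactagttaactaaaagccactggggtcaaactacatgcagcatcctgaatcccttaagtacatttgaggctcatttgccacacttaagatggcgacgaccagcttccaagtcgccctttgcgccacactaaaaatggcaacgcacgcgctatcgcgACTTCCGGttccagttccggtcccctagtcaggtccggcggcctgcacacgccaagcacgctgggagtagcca
Kars (GRCm38.p6, chr8:112011305-112011604, minus strand): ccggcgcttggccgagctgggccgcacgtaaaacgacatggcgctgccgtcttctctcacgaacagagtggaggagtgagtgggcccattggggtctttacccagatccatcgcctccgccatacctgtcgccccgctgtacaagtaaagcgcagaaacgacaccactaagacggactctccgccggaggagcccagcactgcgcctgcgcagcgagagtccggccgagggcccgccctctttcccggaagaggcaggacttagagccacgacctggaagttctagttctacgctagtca

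In Aars the response element lay at -112 to -105 and again at 9 to 16, with the E-box at -146 to -141. In Tars it lay at -15 to -8 with the E-box at 19 to 24, and in Iars at 7 to 14 with the E-box at -69 to -64. In Yars it lay at 3 to 10 and in Gars at -30 to -23. Aars, Iars and Tars, the 3 genes with both motifs, are returned to below with their values. The capitals in Farsa mark the ETS motif at -23 to -16, read on the opposite strand, and Kars held none of the 4.

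Libraries held 59355018 to 80616227 gene counts, so 1 CPM, the level scaled to the library's total, stood for 59.4 to 80.6 counts. CPM below are scaled by TMM factors and given for lines 1, 2, 3 and 4 in that order or as mean ± SD of 4 lines. P-values set the difference between groups against the spread between these lines. As a check of the labels, exon 9 of Abl1 was at 0.0454 to 0.0529 CPM (exon counts over the library's gene total) with MSCV, 9.23 to 20.8 with BCR-ABL1 and 4.36 to 26.8 with SFPQ-ABL1. SFPQ-ABL1 line 2 was the lowest of its group there and on Sfpq exon 9 (4.39 CPM against 14.5 to 20.0). That exon read 3.60 CPM for BCR-ABL1 line 4 and 1.53 to 1.98 for its group's other lines. Counts without these 2 lines are given where they change a result. Of 9 markers of early B cells, 3 passed the count filter (Cd79a, Cd79b and Vpreb1). Among those that did not, Ebf1 had 7 counts over all 12 libraries together, Rag1 5, Igll1 13, Pax5 23 and Il7r 0. The summed level of that list ran from 130 to 152 CPM with MSCV, 49.1 to 71.8 with BCR-ABL1 and 85.1 to 98.6 with SFPQ-ABL1. Granulocyte and monocyte markers (5 of 5 tested) summed to 378 to 752, 181 to 325 and 489 to 549 CPM in the same order. That sum was mostly Ms4a3 (mean 574, 223 and 438 CPM). Mpo, of the same list, was higher with SFPQ-ABL1 than with MSCV (log2 fold change 2.04, adjusted p = 0.049, edgeR, lines overlapping). In that comparison 2 of the 5 changes were above 0. Erythroid markers (4 of 4) summed to 401 to 1106, 167 to 596 and 242 to 1219. Mast cell and basophil markers (1 of 4 tested) summed to 0.0672 to 0.365 CPM with MSCV, 0.876 to 44.8 with BCR-ABL1 and 0.0804 to 2.39 with SFPQ-ABL1. The top of the BCR-ABL1 range was line 2, where Cpa3 had 42.2 CPM against 0.876 to 4.75 in the rest of its group. The 3 IL-3 receptor chains summed to 1807 to 4047 CPM with MSCV, 1069.5 to 2092 with BCR-ABL1 and 952 to 2239.6 with SFPQ-ABL1, and Il3ra was lower with both fusions (log2 fold change -0.94 and -0.57 against MSCV, adjusted p = 2.14e-05 and 0.011, edgeR). T cell markers (2 of 3 tested) summed to 12.3 to 21.8, 9.07 to 14.5 and 8.89 to 17.2 CPM. Cd3g was lower with BCR-ABL1 than with MSCV (log2 fold change -3.00, adjusted p = 0.0024, edgeR). Lck, the other T cell gene tested, had a positive change there and did not pass (0.46, adjusted p = 0.11, edgeR). These marker levels move with the groups, and their part in the results below was not tested.

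The first comparison asked how the enzymes differ between BCR-ABL1 lines without IL-3 and vector lines with it. Most cytosolic synthetase genes rose, and 10 of 16 mitochondrial ones did not pass the test. In sum the 20 cytosolic genes held 3934, 3032, 3283 and 3044 CPM across MSCV and 6189, 6755, 7005 and 6752 across BCR-ABL1, a ratio of means of 2.01. Every BCR-ABL1 line lay above every MSCV line. The 15 mitochondrial genes other than Lars2, whose counts are set apart below, summed to 445 ± 23.5 CPM with MSCV and 464 ± 28.0 with BCR-ABL1 (n = 4 lines each), and the lines overlapped.

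In the edgeR quasi-likelihood test at an adjusted p under 0.05, 16 of 20 cytosolic genes were higher with BCR-ABL1 and 1 was lower, where 15.8% of all genes tested were higher and 16.3% lower. Their median log2 fold change was 1.03, against -0.01 over all genes. The 4 BCR-ABL1 lines all lay above the 4 MSCV lines for 15 cytosolic genes and all below for 1, against 15.7% and 16.0% of all genes. Of the 16 mitochondrial genes 4 were higher, 2 were lower and 10 did not pass, with a median of -0.03. Those calls are 25.0% upward and 12.5% downward, near the shares of all genes. Their lines did not overlap for 3 genes upward and 1 downward. Without BCR-ABL1 line 4 and SFPQ-ABL1 line 2, the cytosolic counts were 15 higher and 1 lower and the mitochondrial ones 3 higher and 1 lower, against 13.5% and 13.7% of all genes.

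**Figure D1:**
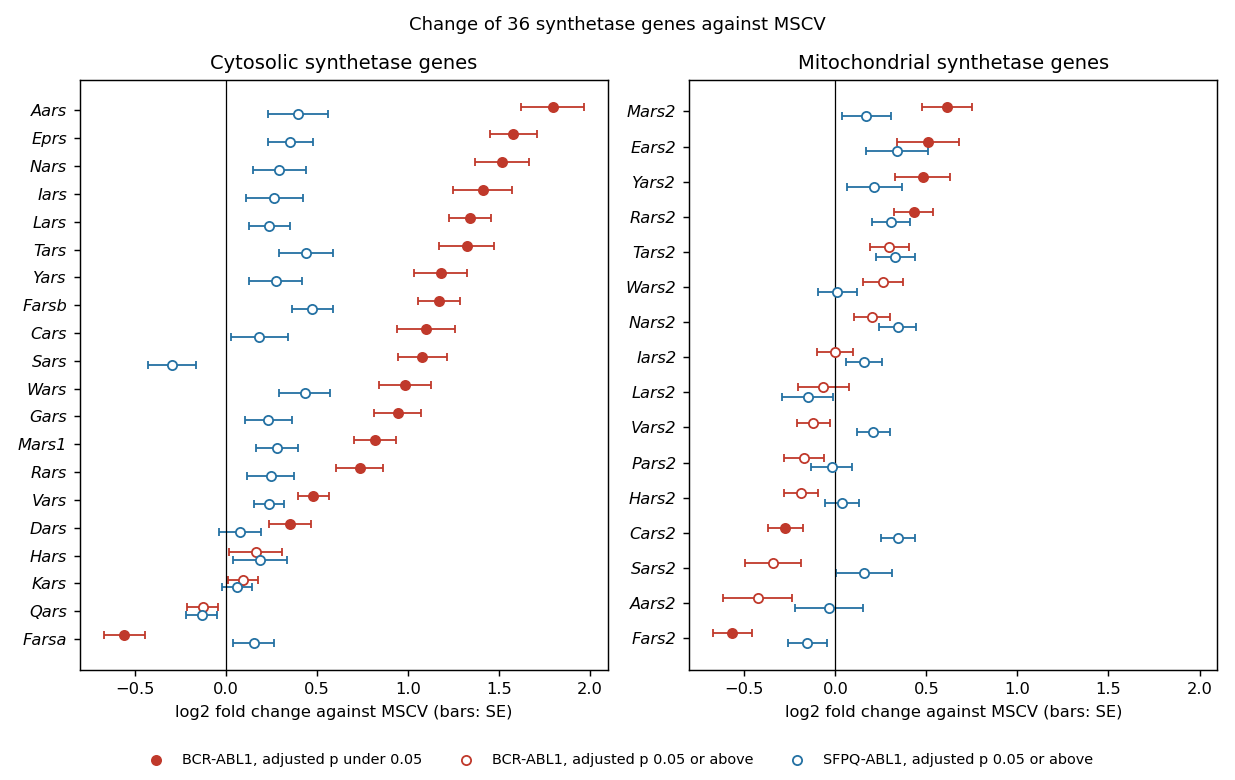
Log2 fold change against MSCV (x axis, bars SE) of each cytosolic (left) and mitochondrial (right) synthetase gene, with BCR-ABL1 in red and SFPQ-ABL1 in blue and filled points where the adjusted p was under 0.05. Red points of 16 cytosolic genes are filled to the right of 0 and that of Farsa to the left, and no blue point is filled.

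Aars, which encodes the alanine enzyme (ENSMUSG00000031960, mm10 chromosome 8, 111033144 to 111057664), had 295, 151, 192 and 170 CPM across MSCV. With BCR-ABL1 it had 651, 692, 764 and 700. Its lowest BCR-ABL1 line lay far above its highest MSCV line, line 1. It rose 3.47-fold, the largest change among the 36 genes (1.79 ± 0.17 SE on the log2 scale, adjusted p = 2.35e-05, edgeR). Its exons moved together, with 21 of 21 exons higher in BCR-ABL1 than in MSCV on the mean exon CPM. Its annotated exons share 1326 bases on the same strand with Exosc6, which had 0 counts. How reads over shared bases were assigned is not given in the sources used here.

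Eprs encodes the bifunctional glutamate and proline enzyme of the multisynthetase complex (ENSMUSG00000026615, chromosome 1, 185363044 to 185428360). It had 304, 198, 254 and 238 CPM across MSCV and 614, 754, 774 and 829 across BCR-ABL1. It rose 2.99-fold (1.58 ± 0.13 SE on the log2 scale, adjusted p = 1.52e-05), and 32 of 32 exons were higher. Lars, the leucine enzyme, which is also known as a leucine sensor of the mTORC1 pathway, had 178, 121, 147 and 132 CPM across MSCV. It had 322, 373, 368 and 401 in the BCR-ABL1 lines and rose 2.53-fold (1.34 ± 0.12 SE on the log2 scale, adjusted p = 1.56e-05). Neither gene's lines overlapped.

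The cytosolic phenylalanine enzyme is built from alpha subunits, encoded by Farsa, and beta subunits, encoded by Farsb, and these 2 genes went opposite ways. Farsb (ENSMUSG00000026245, chromosome 1, 78417975 to 78488897) had 46.8, 42.5, 34.7 and 34.4 CPM across MSCV and 81.2, 93.0, 88.2 and 93.9 across BCR-ABL1. It rose 2.25-fold (1.17 ± 0.11 SE on the log2 scale, adjusted p = 2.80e-05). Farsa (ENSMUSG00000003808, chromosome 8, 84856989 to 84869257) had 157, 161, 142 and 138 CPM with MSCV and 112, 98.9, 97.6 and 97.0 with BCR-ABL1. It was the only cytosolic gene that fell, 1.47-fold (-0.56 ± 0.11 SE on the log2 scale, adjusted p = 0.0024), with every BCR-ABL1 line below every MSCV line.

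Among exons with at least 60 summed counts, 14 of 14 of Farsb were higher with BCR-ABL1 and 0 of 13 of Farsa. Per kilobase of annotated exon, the level of Farsb over that of Farsa was 0.518, 0.458, 0.423 and 0.433 across MSCV. It was 1.26, 1.63, 1.56 and 1.68 across BCR-ABL1 and 0.533, 0.675, 0.508 and 0.612 across SFPQ-ABL1. By this measure Farsa was the higher in all 8 MSCV and SFPQ-ABL1 lines and Farsb in all 4 BCR-ABL1 lines. In CPM not divided by length, Farsa stayed above Farsb in every line of each group (97.0 against 93.9 in BCR-ABL1 line 4). The order with BCR-ABL1 thus depends on the annotated exon lengths, 4538 bases for Farsa and 2620 for Farsb. The ratio per kilobase was formed after the values had been seen and is given without a test.

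Most other class II enzymes rose too. Nars, the asparagine enzyme, rose 2.86-fold from 232 ± 60.8 to 664 ± 26.6 CPM and had the highest level per kilobase of the cytosolic genes in BCR-ABL1 cells (152). Tars, the threonine enzyme, rose 2.50-fold from 173 ± 46.0 to 433 ± 30.1 CPM. Sars, the serine enzyme, rose 2.11-fold from 316 ± 44.4 to 669 ± 70.3, and Gars, the glycine enzyme, 1.92-fold from 184 ± 38.5 to 354 ± 20.9. Adjusted p in edgeR was 0.00021 or below for these 4 genes, and none had overlapping lines. Of 10 class II genes 7 rose and 1, Farsa, fell.

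Kars, the lysine enzyme, did not pass. It had 198, 198, 181 and 187 CPM across MSCV and 219, 195, 219 and 181 across BCR-ABL1, and the lines overlapped. Its log2 fold change was 0.09 ± 0.08 SE, with a 95% interval of -0.09 to 0.27 (adjusted p = 0.43, edgeR). Hars, the histidine enzyme, had 93.1, 104, 67.9 and 69.7 CPM with MSCV and 103, 95.9, 93.5 and 82.8 with BCR-ABL1, again overlapping. Its log2 fold change was 0.16 ± 0.15 SE with an interval of -0.16 to 0.48 (adjusted p = 0.43). Hars shares 195 exon bases with Hars2 on the opposite strand, and how strand was used in counting is not given in the sources used here. Of the 36 genes 10 share exon bases with another coding gene. Dars, the aspartate enzyme, rose 1.27-fold from 212 ± 19.8 to 271 ± 31.9 CPM with overlapping lines (adjusted p = 0.034). Its call was lost with no filter on low counts, without both of the lines set apart above, and on leaving out BCR-ABL1 line 2, 3 or 4 or MSCV line 1 or 2 (adjusted p 0.055 to 0.089).

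Class I enzymes rose in 8 of 9 cases. Iars, the isoleucine enzyme, rose 2.66-fold, from 200, 103, 144 and 123 CPM across MSCV to 341, 396, 378 and 399 across BCR-ABL1. Yars, the tyrosine enzyme, rose 2.26-fold (116 ± 32.2 to 262 ± 14.5 CPM) and Cars, the cysteine enzyme, 2.14-fold (59.0 ± 15.9 to 126 ± 7.65). Wars, the tryptophan enzyme, which interferon is also known to induce, rose 1.98-fold (150 ± 26.3 to 297 ± 43.3).

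Mars1, the methionine enzyme, rose 1.76-fold from 108 ± 22.2 to 191 ± 7.98 CPM. It shares 68 exon bases on the opposite strand with Ddit3, which rose as well, and all 21 of its exons were higher. Rars, the arginine enzyme, rose 1.66-fold, from 112 ± 17.2 to 187 ± 15.7 CPM. Vars, the valine enzyme, had the smallest rise of the class at 1.39-fold, from 264 ± 14.0 to 368 ± 29.5 CPM. All 8 had lines that did not overlap and adjusted p of 0.00103 or below in edgeR. Qars, the glutamine enzyme, did not pass (194 ± 10.3 and 178 ± 17.2 CPM, log2 fold change -0.13 ± 0.09 SE, adjusted p = 0.28, interval -0.31 to 0.06).

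Genes rose inside the multisynthetase complex and outside it. Of 8 complex enzymes 6 rose and 2, Kars and Qars, did not pass. Of 12 cytosolic enzymes outside it 10 rose, Farsa fell and Hars did not pass. The medians were 0.78 and 1.09. All 3 scaffold genes rose: Eef1e1 1.88-fold, from 35.6 ± 9.27 to 66.9 ± 4.12 CPM (0.91 ± 0.18 SE on the log2 scale, adjusted p = 0.0018), Aimp2 by 0.57 on the log2 scale (adjusted p = 0.012) and Aimp1 by 0.33 (adjusted p = 0.0075).

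**Figure D2:**
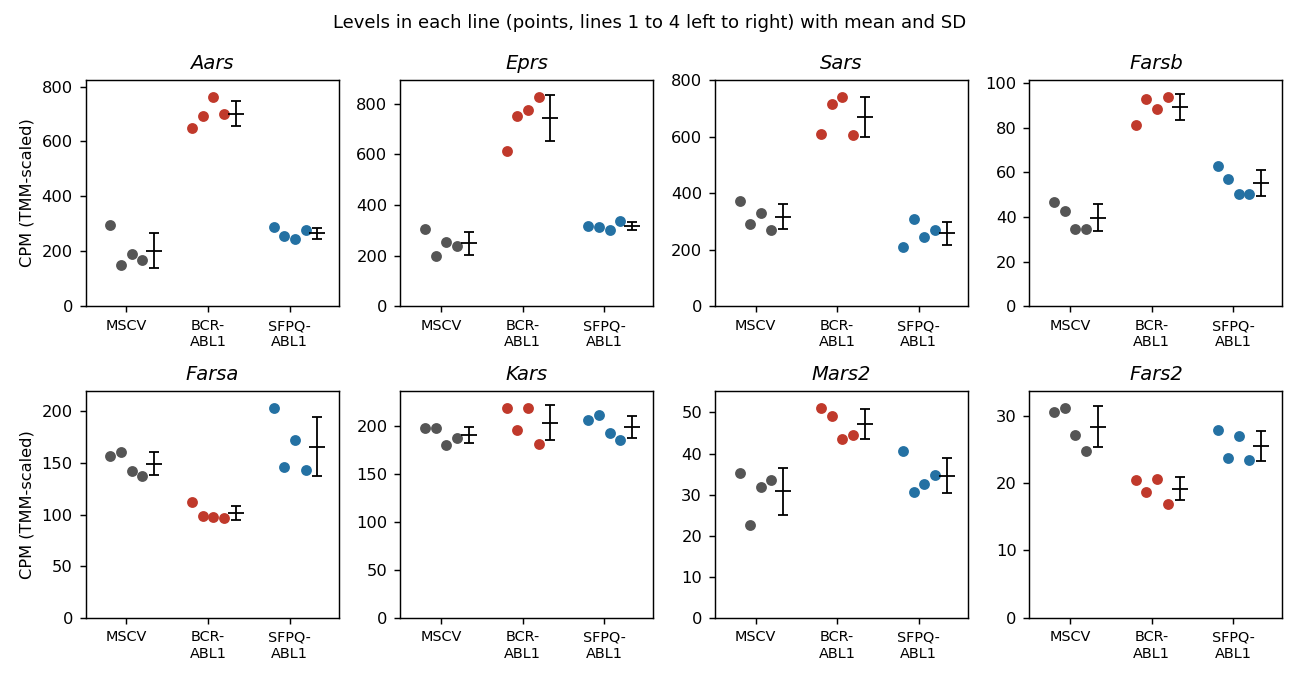
Level in CPM (y axis, from 0) of 8 synthetase genes in each of 4 lines per group (coloured points), with the mean and SD of the group in black. Aars, Eprs, Sars and Farsb are highest in all 4 BCR-ABL1 lines, Farsa and Fars2 are lowest there, and Kars overlaps between the groups.

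Of the mitochondrial enzymes 6 passed the test, and these are described first. Mars2, the mitochondrial methionine enzyme and a gene of 1 exon (chromosome 1, 55237177 to 55248470), had 35.3, 22.5, 31.9 and 33.5 CPM across MSCV and 51.1, 49.2, 43.6 and 44.4 across BCR-ABL1. It rose 1.53-fold (0.61 ± 0.14 SE on the log2 scale, adjusted p = 0.0041, edgeR) with no overlap. Fars2, the mitochondrial phenylalanine enzyme (chromosome 13, 36117412 to 36726280), fell 1.48-fold, from 30.6, 31.2, 27.1 and 24.8 CPM to 20.6, 18.7, 20.7 and 17.0 (log2 fold change -0.57 ± 0.11 SE, adjusted p = 0.0015). All 7 of its exons were lower with BCR-ABL1, and its lines did not overlap either. Both genes kept their call in every alternative run.

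Rars2 had 28.2, 28.9, 22.4 and 23.0 CPM with MSCV and 36.4, 35.5, 35.7 and 30.4 with BCR-ABL1, and rose 1.35-fold (0.43 ± 0.11 SE on the log2 scale, adjusted p = 0.0075). Yars2 had 16.4, 18.7, 12.3 and 12.9 CPM with MSCV and 20.5, 21.1, 21.9 and 20.8 with BCR-ABL1, and rose 1.40-fold (0.48 ± 0.15 SE on the log2 scale, adjusted p = 0.027). Ears2 rose 1.42-fold (8.38 ± 2.22 to 11.9 ± 0.974 CPM, adjusted p = 0.037) and Cars2 fell 1.21-fold (23.8 ± 2.05 to 19.7 ± 1.24 CPM, -0.27 ± 0.09 SE on the log2 scale, adjusted p = 0.041), both with overlapping lines. The calls of these 4 did not hold in every setting. That of Cars2 was lost on leaving out any of 7 lines (1, 2 or 4 of BCR-ABL1, 2, 3 or 4 of MSCV, 3 of SFPQ-ABL1), with adjusted p from 0.051 to 0.11. That of Ears2 was lost without any of 7 lines (1, 3 or 4 of BCR-ABL1, 2, 3 or 4 of MSCV, 3 of SFPQ-ABL1), at 0.053 to 0.10. That of Yars2 was lost without 1 of 5 lines (2, 3 or 4 of BCR-ABL1, 3 or 4 of MSCV), at 0.051 to 0.081. With exon counts summed, the calls of Cars2 (0.19), Yars2 (0.078) and Rars2 (0.090) were lost. With no filter on low counts and in a fit of the 8 libraries compared, those of Cars2 (0.091 and 0.059) and Ears2 (0.066 and 0.055) were lost, and that of Cars2 also in limma-voom (0.051).

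The other mitochondrial genes did not pass. Aars2, partner of the gene that changed most, had 34.6, 62.1, 55.0 and 51.7 CPM with MSCV and 28.2, 39.1, 48.7 and 35.4 with BCR-ABL1 (log2 fold change -0.43 ± 0.19 SE, adjusted p = 0.10). Iars2 had 72.8, 77.9, 70.1 and 71.7 CPM with MSCV and 75.3, 82.7, 72.8 and 61.3 with BCR-ABL1 (log2 fold change -0.002 ± 0.10 SE, adjusted p = 0.99, interval -0.22 to 0.21). The remaining 8 of the 10 had log2 fold changes from -0.34 (Sars2) to 0.30 (Tars2, adjusted p = 0.051). Tars2 passed with RLE factors (0.045), in DESeq2 (0.035), without 1 of 4 lines (4 of BCR-ABL1, 1 or 2 of MSCV, 4 of SFPQ-ABL1, at 0.029 to 0.047) and without both of the lines set apart above (0.044). Aars2 passed without BCR-ABL1 line 3 (0.043) or MSCV line 1 (0.023), Wars2 without BCR-ABL1 line 1 (0.021) and Nars2 with summed exon counts (0.013).

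Lars2, the mitochondrial leucine enzyme (chromosome 9, 123366927 to 123462666), stood at 3177 to 4348 CPM with MSCV, 2970 to 4387 with BCR-ABL1 and 3139 to 4035 with SFPQ-ABL1. It alone held most of the CPM of its class. Exon counts were read along 1 coding transcript per gene. For Lars2 they came to 320534 over 12 libraries, against 3179204 gene counts, so most of its gene counts were not placed by these exons. Its last exon, number 21, with 1166 bases, held 319109 of these exon counts. The 20 exons before it, with 2728 bases, held 1425. The last exon thus had 99.6% of the exon counts on this transcript. In Mars2 and Pars2, whose transcripts have 1 and 2 exons, 1 exon held nearly all exon counts as well. Among the other 33 genes the fullest exon held 8.31% (Eprs) to 79.1% (Wars2).

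The 20 exons before the last summed to 1.64, 1.14, 1.66 and 1.92 exon CPM across MSCV, to 2.17, 1.54, 1.46 and 1.22 across BCR-ABL1 and to 1.68, 1.68, 1.71 and 1.94 across SFPQ-ABL1, with all groups overlapping. The gene-level log2 fold change of Lars2 was -0.07 ± 0.14 SE with BCR-ABL1 against MSCV (adjusted p = 0.76, edgeR). Nearly all exon counts on its transcript lay in 1 exon, and where most of its gene counts lay is not known here. Sums of mitochondrial levels are given without this gene for that reason. What places these exon counts there was not tested.

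**Figure D3:**
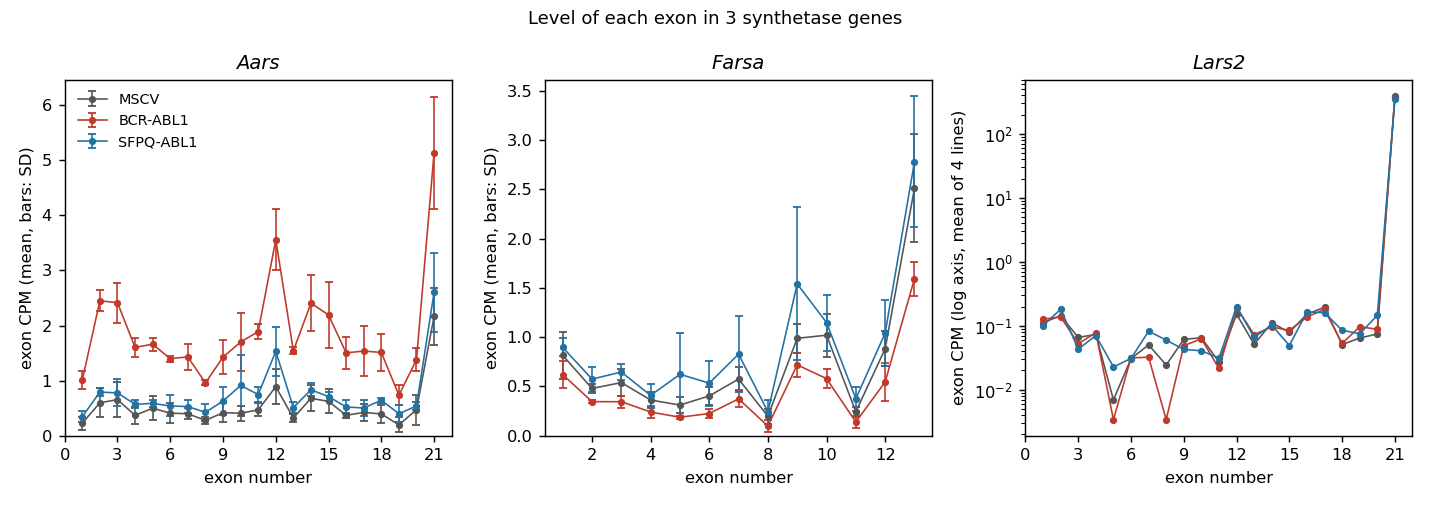
Mean exon CPM (y axis) by exon number (x axis) in MSCV, BCR-ABL1 and SFPQ-ABL1, with SD bars over 4 lines for Aars and Farsa and a log axis without bars for Lars2. All 21 exons of Aars are highest and all 13 of Farsa lowest with BCR-ABL1, and exon 21 of Lars2 stands far above the 20 before it in every group.

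Each cytosolic gene was also set against the mitochondrial gene for the same amino acid. There are 17 such pairs, with Eprs paired to both Ears2 and Pars2 and both Farsa and Farsb paired to Fars2, so pairs that share a gene are not independent. With BCR-ABL1 against MSCV the signed log2 fold change of the cytosolic gene was the higher in 17 of 17 pairs, and the ratio of cytosolic to mitochondrial level rose without overlap of lines in 15. Both counts include Lars and Lars2, although nearly all exon counts on the Lars2 transcript lay in 1 exon. The median difference of log2 fold changes was 1.07. It was widest for alanine, where Aars over Aars2 per kilobase went from 2.28 ± 1.42 to 9.79 ± 1.62 (difference 2.22). It was 1.75 for Eprs and Pars2 and 1.73 for Farsb and Fars2. The exceptions without separated lines were Mars1 and Mars2, where both rose (difference 0.20), and Farsa and Fars2, where both fell (difference 0.0063, with an SE of 0.11 for each gene). In the histidine pair neither gene passed (0.16 for Hars and -0.19 for Hars2).

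**Figure D4:**
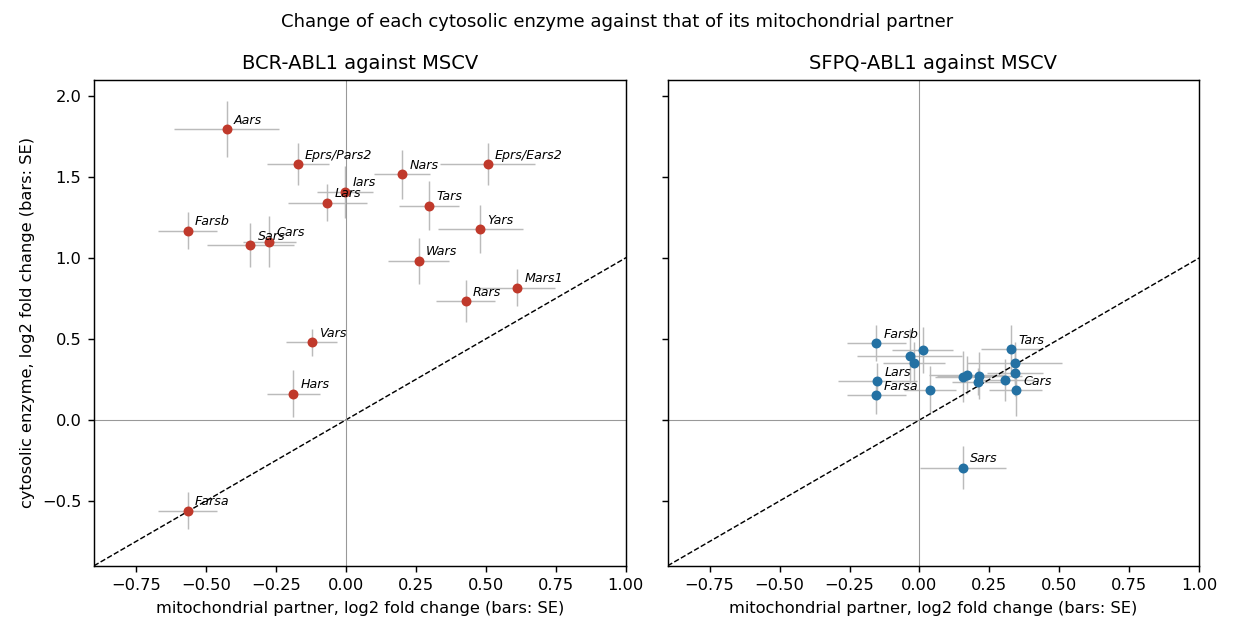
Log2 fold change of each cytosolic gene (y axis) against that of its mitochondrial partner (x axis), bars SE, for BCR-ABL1 (left, all pairs named) and SFPQ-ABL1 (right, 6 pairs named), with equal change on the dashed line. All 17 points lie on or above the line with BCR-ABL1, that of Farsa with a difference of 0.0063, and 13 of 17 lie above it with SFPQ-ABL1.

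In CPM, not per kilobase, the sum of cytosolic levels over the sum of mitochondrial levels without Lars2 was 8.84, 6.34, 7.60 and 7.14 across MSCV. It was 13.3, 14.3, 14.3 and 15.9 across BCR-ABL1 and 7.31, 7.66, 7.42 and 8.31 across SFPQ-ABL1. The BCR-ABL1 lines did not overlap with either other group, while MSCV and SFPQ-ABL1 overlapped.

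The second comparison set SFPQ-ABL1 lines against the same vector lines. No synthetase gene passed the test in either class, where 0.814% of all genes were higher and 0.977% lower in edgeR. At an unadjusted p under 0.05 there were 8 cytosolic and 5 mitochondrial genes, against 18.6% of all genes. DESeq2 called 1 and 2 higher, against 3.11% of all genes. The cytosolic log2 fold changes were small and mostly above 0, in 18 of 20 genes, with a median of 0.24. The 4 SFPQ-ABL1 lines lay above the MSCV lines for 2 cytosolic genes, Farsb and Vars, and 4 mitochondrial ones, Cars2, Nars2, Rars2 and Vars2, against 5.0% of all genes. They lay below for none, against 6.24%.

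Farsb came closest, with 62.6, 56.8, 50.4 and 50.4 CPM across SFPQ-ABL1 against 34.4 to 46.8 with MSCV (log2 fold change 0.47 ± 0.11 SE, adjusted p = 0.054, edgeR). It passed in DESeq2 (adjusted p = 0.0072), with no normalization factors (0.040), with no filter on low counts (0.047) and without MSCV line 1 (0.029). Tars had 263, 216, 225 and 235 CPM against 140 to 240 (log2 fold change 0.44 ± 0.15 SE, adjusted p = 0.14). Wars had 207, 167, 209 and 228 against 126 to 187 (0.43 ± 0.14 SE, adjusted p = 0.13), and Vars 291, 329, 328 and 297 against 248 to 281 (0.24 ± 0.08 SE, adjusted p = 0.16). The intervals of these 3 allow a change from 1.04-fold (Vars) to 1.69-fold (Tars).

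Kars (199 ± 11.8 against 191 ± 8.43 CPM, log2 fold change 0.06, interval -0.12 to 0.24) and Dars (224 ± 28.8 against 212 ± 19.8 CPM, 0.08, interval -0.17 to 0.33) had the largest adjusted p (0.74 and 0.76). Qars (-0.13) and Sars (-0.29 ± 0.13 SE, adjusted p = 0.26) were the 2 cytosolic genes with a change below 0. Of the exons of Sars 0 of 11 were higher with SFPQ-ABL1 than with MSCV, although 11 of 11 were higher with BCR-ABL1.

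MSCV line 1 weighs on this comparison. It was the highest MSCV line for 14 of 20 cytosolic genes, for example Iars (200 CPM against 103 to 144 in lines 2 to 4), and also for Atf4 (375 CPM against 214 to 242). The coefficient of variation between lines had a median of 17.6% over cytosolic genes with MSCV, 7.51% with BCR-ABL1 and 7.47% with SFPQ-ABL1. Without MSCV line 1, SFPQ-ABL1 against MSCV gave 6 cytosolic genes higher, where 1.16% of all genes were: Aars (log2 fold change 0.64), Tars (0.65), Farsb (0.57), Yars (0.49), Iars (0.48) and Mars1 (0.43), with adjusted p of 0.015 to 0.048 in edgeR. Aars across SFPQ-ABL1 had 289, 255, 244 and 276 CPM, all between MSCV line 1 (295) and the other MSCV lines (151 to 192).

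In the mitochondrial class Cars2 had 28.7, 28.1, 30.3 and 33.7 CPM with SFPQ-ABL1 against 20.8 to 25.5 with MSCV (log2 fold change 0.34 ± 0.09 SE, adjusted p = 0.081). Nars2 had 22.2, 18.1, 21.4 and 20.7 against 14.6 to 17.5 (0.34 ± 0.10 SE, adjusted p = 0.10). Tars2 had 92.3, 90.0, 82.7 and 72.4 against 58.8 to 75.7 (0.33 ± 0.11 SE, adjusted p = 0.13), and Rars2 32.5, 34.1, 30.3 and 29.7 against 22.4 to 28.9 (0.31 ± 0.11 SE, adjusted p = 0.15). DESeq2 called Cars2 and Nars2 (adjusted p = 0.012 and 0.026). Aars2 (-0.03, interval -0.44 to 0.37) and Wars2 (0.01, interval -0.22 to 0.25) had overlapping lines and the largest adjusted p (0.95 and 0.97). The mitochondrial sum without Lars2 was 530, 506, 499 and 461 CPM across SFPQ-ABL1, against 426 to 478 with MSCV.

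The third comparison set both fusions side by side without IL-3. With SFPQ-ABL1, 15 of 20 cytosolic genes were lower than with BCR-ABL1 and 1, Farsa, was higher, where 12.8% of all genes were lower and 13.2% higher in edgeR. The median log2 fold change was -0.70. Lines did not overlap for 15 genes downward and 1 upward, against 14.0% and 13.9% of all genes. These values share the BCR-ABL1 lines with the first comparison.

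Sars had the smallest adjusted p (8.77e-05). It had 209, 308, 245 and 269 CPM across SFPQ-ABL1 and 609, 715, 742 and 607 across BCR-ABL1, and was 2.59-fold lower (log2 fold change -1.37 ± 0.13 SE, edgeR). Eprs was at 319, 315, 301 and 336 CPM with SFPQ-ABL1, 2.34-fold below BCR-ABL1 (-1.22 ± 0.13 SE, adjusted p = 9.24e-05). Nars was at 281, 279, 271 and 308 CPM, 2.33-fold lower (-1.22 ± 0.15 SE, adjusted p = 0.00019), and Lars at 171, 169, 164 and 178 CPM, 2.15-fold lower (-1.10 ± 0.11 SE, adjusted p = 9.24e-05). For these 4 genes the 8 lines fell into separate ranges by fusion.

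Aars was 2.64-fold lower with SFPQ-ABL1 (log2 fold change -1.40 ± 0.17 SE, adjusted p = 0.00020, edgeR) and Iars 2.21-fold lower (-1.14 ± 0.16 SE, adjusted p = 0.00039). Cars, Yars, Tars, Gars and Farsb were 1.89-, 1.87-, 1.84-, 1.64- and 1.62-fold lower, Wars and Mars1 1.46- and 1.45-fold, Rars 1.40-fold and Vars 1.18-fold, the last with an adjusted p of 0.049. The call of Vars was lost on leaving out any of 9 lines (1, 3 or 4 of SFPQ-ABL1, 2, 3 or 4 of BCR-ABL1, 1, 3 or 4 of MSCV), with adjusted p from 0.054 to 0.16. It was also lost with summed exon counts, where its log2 fold change was -0.098 in place of -0.24 (adjusted p = 0.62), with no filter on low counts (0.20), with no normalization factors (0.12) and in a fit of the 8 libraries compared (0.067). That of Rars was lost without SFPQ-ABL1 line 3 (0.053). That of Wars was lost without BCR-ABL1 line 4 and SFPQ-ABL1 line 2 together (0.078) and with summed exon counts (0.056). Without those 2 lines 13 cytosolic genes were lower, against 10.9% of all genes.

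Farsa was higher with SFPQ-ABL1, at 203, 146, 172 and 143 CPM against 97.0 to 112 with BCR-ABL1, with no overlap (1.64-fold, log2 fold change 0.71 ± 0.11 SE, adjusted p = 0.00087). Hars (log2 fold change 0.02, interval -0.29 to 0.34), Qars (-0.01, interval -0.19 to 0.18), Kars (-0.03, interval -0.21 to 0.15) and Dars (-0.27, adjusted p = 0.10) did not pass. Dars passed without BCR-ABL1 line 1 (0.037) or SFPQ-ABL1 line 2 (0.038). The 3 genes that stayed out of the calls in the first comparison, Hars, Kars and Qars, were thus also out of the calls here.

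In the mitochondrial class 4 of 16 genes were higher with SFPQ-ABL1 (25.0%) and 1 lower (6.25%), against the 13.2% and 12.8% of all genes. Cars2 was 1.54-fold higher (30.2 ± 2.49 against 19.7 ± 1.24 CPM, log2 fold change 0.62 ± 0.09 SE, adjusted p = 0.00070, edgeR). Fars2 was 1.33-fold higher, at 27.9, 23.8, 27.1 and 23.4 CPM against 17.0 to 20.7 (0.41 ± 0.11 SE, adjusted p = 0.013). Vars2 was 1.26-fold higher, at 32.4, 32.6, 35.9 and 31.7 CPM against 24.0 to 29.5 (0.33 ± 0.09 SE, adjusted p = 0.018), and Sars2 1.41-fold higher (16.1 ± 3.29 against 11.4 ± 1.47 CPM, adjusted p = 0.031, lines overlapping). Mars2 was 1.36-fold lower, at 40.6, 30.7, 32.5 and 34.8 CPM against 43.6 to 51.1 (-0.44 ± 0.14 SE, adjusted p = 0.029).

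Cars2 and Fars2 kept their call in every alternative. That of Vars2 was lost without any of 3 lines (2 or 4 of BCR-ABL1, 3 of SFPQ-ABL1), with adjusted p from 0.055 to 0.063. That of Sars2 was lost without any of 5 lines (2, 3 or 4 of BCR-ABL1, 1 or 2 of SFPQ-ABL1), at 0.056 to 0.096, and that of Mars2 without any of 5 (1 or 2 of BCR-ABL1, 2, 3 or 4 of SFPQ-ABL1), at 0.060 to 0.079. With summed exon counts those of Sars2 (0.30) and Vars2 (0.068) were lost, and with no normalization factors that of Mars2 (0.070), while Hars2 passed there (0.048). Wars2 passed, as lower, without BCR-ABL1 line 1 (0.028). Without BCR-ABL1 line 4 and SFPQ-ABL1 line 2 together, 2 mitochondrial genes were higher and 0 lower, against 11.3% and 10.9% of all genes. Tars2 (0.03, interval -0.20 to 0.26) and Lars2 (-0.09, interval -0.39 to 0.22) had the largest adjusted p.

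The levels of single genes were ranked per kilobase of annotated exon. With MSCV the cytosolic genes ran from 8.96 CPM per kilobase (Cars) to 61.5 (Sars), and with BCR-ABL1 from 19.2 (Cars) to 152 (Nars). Cars was the lowest in each group. The 15 mitochondrial genes other than Lars2 lay below nearly all of these, from 1.63 (Ears2) to 10.7 (Aars2) with MSCV and from 2.31 (Ears2) to 12.4 (Rars2) with BCR-ABL1. Cars was in fact below Aars2, Tars2 and Rars2 with MSCV. Aars rose from rank 16 of 20 with MSCV to rank 5 with BCR-ABL1 and stood at rank 15 with SFPQ-ABL1, and Farsa went from rank 10 to 19 and 12. Of 19 pairs of neighbours in the cytosolic order, the 4 lines overlapped in 18 with MSCV, 15 with BCR-ABL1 and 16 with SFPQ-ABL1, so most neighbours were not separated.

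Aars, Iars and Tars had log2 fold changes of 1.79, 1.41 and 1.32 with BCR-ABL1, and Yars and Gars, with the response element alone, 1.18 and 0.94. The 8 other cytosolic genes with a promoter sequence ran from -0.56 (Farsa) to 1.58 (Eprs), so large changes also occurred without a match in this window. In Ears2, the mitochondrial gene with an E-box, the change was 0.51. No binding was measured, and the part of these motifs in the changes was not tested.

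Genes of the ATF4 response were set beside the enzymes. Of 11 genes 9 entered the test, while Atf3 (6 counts in all) and Chac1 (23 counts) were too low. With BCR-ABL1 9 of 9 rose, against 15.8% of all genes, with a median log2 fold change of 2.12. With SFPQ-ABL1 against BCR-ABL1 9 of 9 were lower, against 12.8% of all genes. Atf4 itself had 454, 585, 607 and 739 CPM across BCR-ABL1, 375, 214, 242 and 235 with MSCV and 431, 354, 338 and 397 with SFPQ-ABL1. Asns, the asparagine synthetase that makes the amino acid Nars uses, rose from 88.6 ± 30.6 to 386 ± 29.3 CPM (2.12 ± 0.21 SE on the log2 scale, adjusted p = 3.03e-05, edgeR). None of the 9 passed with SFPQ-ABL1 against MSCV in edgeR. DESeq2 called 1, and 3 were at an unadjusted p under 0.05, against 18.6% of all genes.

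Other genes of tRNA charging and of elongation were described in the same way. Of 5 editing and synthetase-like genes (Aarsd1, Prorsd1, Dtd1, Dtd2 and Tarsl2, several of which remove wrongly attached amino acids) 0 passed in any comparison in edgeR, DESeq2 or limma-voom, and 0 were at an unadjusted p under 0.05. In edgeR 15.8% of all genes were called higher and 16.3% lower with BCR-ABL1 against MSCV, and 42.9% were at an unadjusted p under 0.05. With SFPQ-ABL1 against MSCV these shares were 0.814%, 0.977% and 18.6%. With SFPQ-ABL1 against BCR-ABL1 13.2% were called higher and 12.8% lower. Of 4 mitochondrial partners in charging, Gatb, a subunit of the amidotransferase that makes glutaminyl-tRNA in mitochondria, fell with BCR-ABL1 from 23.2 ± 3.29 to 16.0 ± 2.01 CPM (-0.53 ± 0.12 SE on the log2 scale, adjusted p = 0.0044). Qrsl1 and Gatc, which encode the other subunits of that enzyme, and Mtfmt, which formylates the initiator methionine, did not pass. Gatb was higher with SFPQ-ABL1 than with BCR-ABL1 (24.6 ± 1.45 CPM, adjusted p = 0.0027). Each of these 2 calls of Gatb is 25% of the 4 genes, against 16.3% of all genes lower in the first case and 13.2% higher in the second.

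Of the 5 genes of cytosolic elongation factors and their subunits, 0 passed with BCR-ABL1 against MSCV in edgeR, DESeq2 or limma-voom. In edgeR 1 was at an unadjusted p under 0.05, against 42.9% of all genes. With SFPQ-ABL1 4 of 5 were lower than with BCR-ABL1 (Eef1a1, Eef1b2, Eef1g and Eef2), against 12.8% of all genes. Eef2 went from 5643 ± 468 CPM with BCR-ABL1 to 4379 ± 455 with SFPQ-ABL1 (log2 fold change -0.37 ± 0.10 SE, adjusted p = 0.014). Of 9 mitochondrial translation factors 1 rose with BCR-ABL1, the ribosome recycling factor Mrrf (22.1 ± 0.824 to 29.1 ± 2.80 CPM, adjusted p = 0.0039), and 2 fell, the initiation factor Mtif3 (adjusted p = 0.027) and the release factor Mtrf1l (adjusted p = 0.0075). The other 6 did not pass. These calls are 11.1% upward and 22.2% downward, near the 15.8% and 16.3% of all genes.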

How the data were processed

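RNA sequencing of 12 Ba/F3 libraries (3 groups of 4) gave raw counts per Ensembl gene and per exon. The authors deposited the raw counts, and the submitters' processing notes name Subread, featureCounts and the mm10 build. The sources used here do not give the aligner version, annotation, strand or multi-mapping settings. Relative to the gene table, the exon table held 18.0% as many counts. Gene names, lengths and coordinates came from GENCODE M21, which matched 55230 of 55471 identifiers (Mars1 is Mars there). Reads carry no molecular identifiers. Of the listed marker genes, 1 is not reported here.

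Genes passing filterByExpr (17197) were fitted with edgeR 4.0.16 in R 4.3.3 (TMM factors, quasi-likelihood test, group as the only term, all 12 libraries), with Benjamini-Hochberg adjustment over all of them and a threshold of 0.05. SEs and 95% intervals come from the same fit. Exon CPM are exon counts over the library's gene total, in CPM units, with no TMM factor. Single exons are those of 1 coding transcript per gene. The rule for named genes takes, per comparison and class, the 4 with the smallest and the 2 with the largest adjusted p and those called in the direction opposite to most others. The other members are described so that each is accounted for. Members, lists and tests were chosen with earlier results of these data known. Alternatives were DESeq2 1.42.0, limma-voom (limma 3.58.1), other scaling, no filter, fits of 8 libraries, summed exon counts, a replicate block and leaving out each line. The fits were tested on simulated data. Replicate numbers were not taken to pair the lines in the main fit.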

Additional observations from a re-analysis of the deposited data

Results flagged for a closer look

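In 3 cases 1 line stood apart from the other 3 of its group by more than Dixon's 95% limit. Among 120 groups of 4 lines that were looked at, chance alone flags about 1 in 20. Farsa had 112 CPM in BCR-ABL1 line 1 and 97.0 to 98.9 in the other BCR-ABL1 lines. Vars had 412 CPM in BCR-ABL1 line 3 and 347 to 358 in the others. Rars2 had 30.4 CPM in BCR-ABL1 line 4 and 35.5 to 36.4 in the others. Each of these lines lay on the same side of all 4 MSCV lines as the rest of its group.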

How the results depend on the processing

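Of 17 cytosolic calls with BCR-ABL1 against MSCV, 16 held in every alternative and Dars did not, and of 6 mitochondrial calls 2 held, Fars2 and Mars2. With SFPQ-ABL1 against BCR-ABL1, 13 of 16 and 2 of 5 held. In each case below the cause was not tested. With BCR-ABL1 against MSCV, leaving out 1 line gave 2 to 5 mitochondrial genes higher and 1 to 3 lower, and 1 was lower with limma-voom, with no filter on low counts, in a fit of the 8 libraries compared, with summed exon counts, and without BCR-ABL1 line 4 and SFPQ-ABL1 line 2 together, an alternative chosen after seeing the data.

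With SFPQ-ABL1 against MSCV, 308 genes were called in all. The count was 1131 in DESeq2, 110 in a fit of 8 libraries, 157 with summed exon counts, 498 without both named lines, and 33 to 467 on leaving out 1 line. Cytosolic genes called higher numbered 1 with no normalization factors, in DESeq2 and with no filter (Farsb in each), and 0 to 6 on leaving out 1 line. Mitochondrial genes called higher numbered 2 in DESeq2. With the replicate block there were 726 genes in all, with 1 cytosolic gene (Farsb) and 1 mitochondrial gene (Tars2) higher. The block moved no other count of synthetases called by over 1.5 times but changed which genes passed. With BCR-ABL1 against MSCV it added Aars2 (lower, adjusted p = 0.012) and Tars2 (higher, 0.013), and with SFPQ-ABL1 against BCR-ABL1 Dars (lower, 0.031) and Aars2 (higher, 0.018). It ended no call. Deviations of same-numbered lines correlated from -0.0063 to 0.38, over 0.1 in 7 of 12 cases, and those of other lines from -0.35 to 0.23, over 0.1 in 6 of 36. Lines correlated best with their own number in 12 of 24 cases, each a choice among 4 lines. Same-numbered lines were thus over 0.1 more often than others, though not in every pair, and the main tests hold no term for this. The labels state no block.

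With SFPQ-ABL1 against BCR-ABL1, 4471 genes were called in all, and 2617 with summed exon counts. Mitochondrial genes higher numbered 2 with summed exon counts and without both named lines, and 2 to 4 on leaving out 1 line. Those lower numbered 0 with no normalization factors and without both named lines, and 0 to 1 on leaving out 1 line. Their median log2 fold change was 0.031 with summed exon counts and 0.043 without both named lines.

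For the genes that the rule names in each comparison, changes of sign were found among values near 0 that were not called. With BCR-ABL1 against MSCV, Lars2 ran from -0.16 to 0.025 and Iars2 from -0.070 to 0.072 on leaving out 1 line, and Iars2 was at 0.0067 with RLE factors, 0.0068 in DESeq2 and 0.074 without both named lines. With SFPQ-ABL1 against MSCV, the leave-one-out ranges were -0.011 to 0.14 for Dars, -0.17 to 0.083 for Aars2 and -0.048 to 0.035 for Wars2. There Dars was at -0.0045 without both named lines, Aars2 at 0.021 with no normalization factors and 0.0049 with summed exon counts, and Wars2 at -0.094 with summed exon counts. With SFPQ-ABL1 against BCR-ABL1, these ranges were -0.054 to 0.10 for Hars, -0.064 to 0.035 for Qars, -0.18 to 0.0072 for Lars2 and -0.019 to 0.10 for Tars2. There Hars was at -0.059 with summed exon counts and -0.073 without both named lines. Qars was at 0.059 with no normalization factors, 0.015 with no filter and 0.040 with summed exon counts. Lars2 was at 0.050 without both named lines, and Tars2 at -0.18 with summed exon counts and -0.052 without both named lines. Other members that were not called changed sign too. With summed exon counts Sars2 went from 0.16 to -0.11 and Fars2 from -0.15 to 0.012 (SFPQ-ABL1 against MSCV). Nars2 went from 0.14 to -0.069 there (SFPQ-ABL1 against BCR-ABL1). Pars2 and Hars2 in the former comparison and Kars in the latter also changed sign in some alternatives.

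The smallest CPM of the 36 genes, and so the least precise by counting, was that of Ears2 in MSCV line 3, at 6.70, where 1 CPM stood for at least 59.4 counts. Exons with fewer than 60 summed counts were not compared.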
